A study of Mus musculus with 5 samples.

Results

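Imprinted genes are genes that are read from only the maternal or only the paternal chromosome in at least some tissues. A list of 41 known autosomal imprinted genes and of genes that share their loci, in 19 clusters, was followed by symbol through RNA-seq of sorted mouse thymocytes, and all 41 were found among the 55487 gene identifiers of the count files. The cells were CD4 single positive (SP) thymocytes, sorted as live CD24low CD4+ TCRb+ CD8- cells that did not bind the aGalCer-loaded CD1d tetramer (the reagent that marks invariant NKT cells). Of the 5 libraries, each from 1 mouse, 3 were wild type (WT) and 2 were Tet2-/- Tet3flx/flx CD4cre (Tet2/3 DKO), all on the C57BL/6J strain and, per the study's methods, from mice of 21 to 30 days. In the DKO mice Tet2 was deleted in the whole animal, whereas Tet3 was deleted by a Cre recombinase that acts in T cells. The comparison asks which imprinted genes are measurable in these cells and how their RNA level differs when both enzymes are lost. Because the mice were inbred and the files give counts per gene, maternal and paternal transcripts could not be told apart, and every value here is the sum of both alleles.

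Imprinting rests on differentially methylated regions (imprinting control regions), where DNA methylation set in the egg or the sperm is kept on one parental copy through the divisions of the embryo. At several clusters the unmethylated copy makes a long noncoding RNA, such as Airn or Kcnq1ot1, and protein-coding neighbors on that same chromosome stay silent. TET enzymes oxidize 5-methylcytosine and thereby take part in the removal of DNA methylation. Many imprinted genes act in growth of the fetus and placenta or in the brain and are shut off in adult tissues, but some, such as Igf2r, remain active in lymphocytes.

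The libraries held between 17607089 and 27267031 reads assigned to genes. Tet3 was at 1133, 1082 and 1440 counts in the WT libraries and at 419 and 235 counts in the DKO libraries, a log2 fold change of -1.50 (SE 0.18, adjusted p = 0.00121, edgeR quasi-likelihood test; 0.0154 without WT replicate 2 and 0.0144 without WT replicate 3). Tet2, at 1355, 1286 and 1585 counts in WT against 1919 and 1048 in DKO, did not pass (log2 fold change 0.46, adjusted p = 0.135), and was 0.72 without DKO replicate 2 (adjusted p = 0.000505) and 0.10 without DKO replicate 1 (adjusted p = 0.725). The counts cover whole genes, so reads from outside the deleted exons are included in both. Labels and data disagreed for 2 libraries: WT replicate 1 is labeled female but had 6821 counts over the Y-linked Ddx3y, Kdm5d, Eif2s3y and Uty and 0 for the X-inactivation RNA Xist, and DKO replicate 1 is labeled male but had 7 and 744. The study's methods give all the RNA-seq mice as male. By these counts DKO replicate 1 reads as female, whereas DKO replicate 2 had 5101 Y-linked counts, so the DKO group mixes the sexes. DKO replicate 1 also had the highest share of reads outside annotated genes, 6.45% against 3.94% to 4.16% in the others. Calls of the imprinted genes that its omission changes are therefore also given without it, and a fit with 1 DKO library assumes that this library varies as the WT libraries do. Correlations of log2 CPM (CPM is the count of a gene scaled to a common library size) were 0.989 to 0.991 among WT libraries, 0.971 between the DKO libraries and 0.955 to 0.966 across genotypes. All CD4 SP markers (10 of 10) were detected, among them Cd3d at 23784 to 39583 counts and Cd4 at 7741 to 17858.

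Of the 41 genes, 22 had at least 10 counts in at least 1 library and 16 reached 10 counts in all 5. The other 19 were under 10 counts everywhere, of which 10 were at 0 in all libraries. Per kilobase of exon, the scale on which levels of different genes can be set side by side, H13 (a signal peptide peptidase) was highest, with a WT mean of 39.3 CPM per kb, followed by Igf2r at 19.9 and Copg2 (a subunit of the COPI coat) at 13.5. Blcap, Trappc9, Herc3, Inpp5f, Commd1 and Ube3a lay between 2.44 and 5.98 CPM per kb in WT. Airn at 1.77 and Impact at 1.69 were the only others above 1 CPM per kb in WT. At the low end, Dlk1 had 0.0214, Mest 0.0427, Snrpn 0.0561 and Plagl1 0.0867 CPM per kb. Gnas stood at 0.116 CPM per kb by this count, in which nearly all of its reads were set aside.

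**Figure D1:**
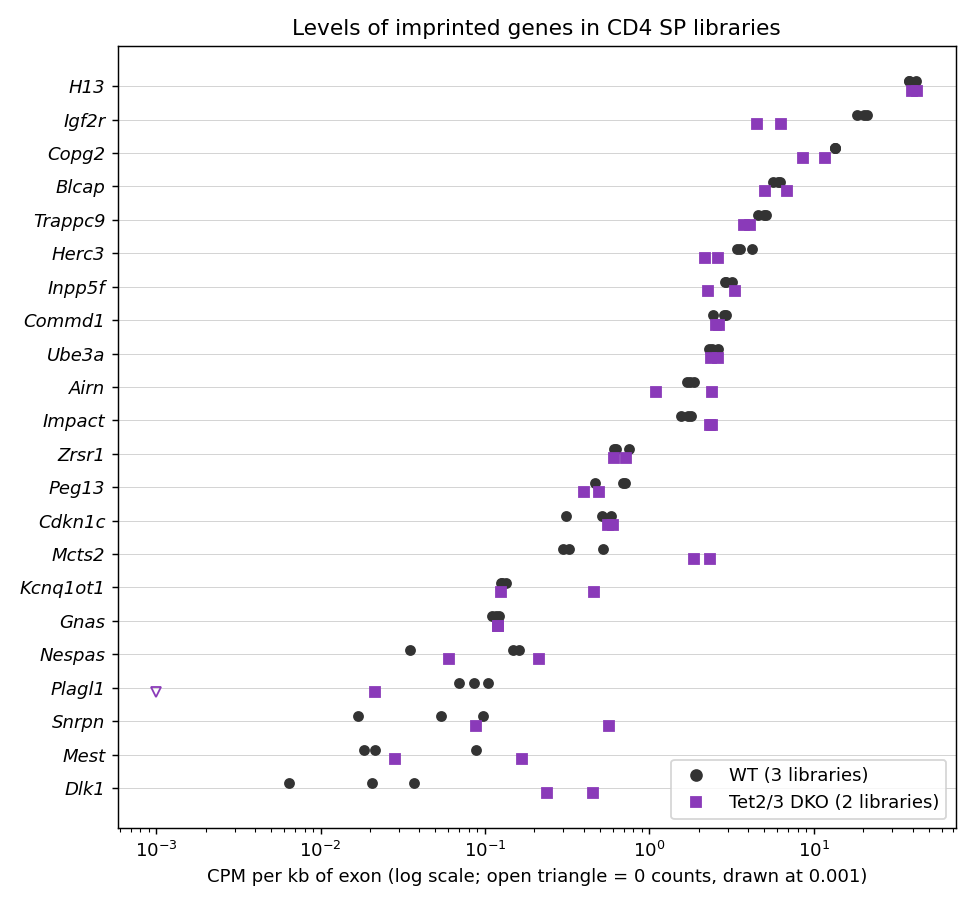
Level of the 22 imprinted genes with at least 10 counts in some library, in CPM per kilobase of exon on a log axis, with 1 point per library (circles WT, n = 3; squares Tet2/3 DKO, n = 2). Igf2r lies to the left in both DKO libraries (WT mean 19.9, DKO mean 5.41 CPM per kb), while Dlk1 and Mcts2 lie to the right.

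Among the 20 genes that had enough counts for a test, 3 changed at an adjusted p under 0.01: Igf2r fell, and Dlk1 and Mcts2 rose. Of all 13525 genes tested, 3.92% passed the same test, 2.42% as higher and 1.5% as lower in DKO. Nothing is read from the count of 3 against that share, since Dlk1 and Mcts2 entered the test only through the DKO libraries, in which they are high, and both calls were lost without any 1 WT library. The groups did not overlap for 8 of the 20 (3 higher, 5 lower in DKO), beside 39.1% of all tested genes. The median log2 fold change was 0.013 over the 20 genes and 0.008 over all genes tested, and 14 of the 20 had a log2 fold change smaller than 0.5 in size. All tests used the counts of the whole table (edgeR quasi-likelihood test, Benjamini-Hochberg adjustment), with a median SE of 0.222 for these genes.

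**Figure D2:**
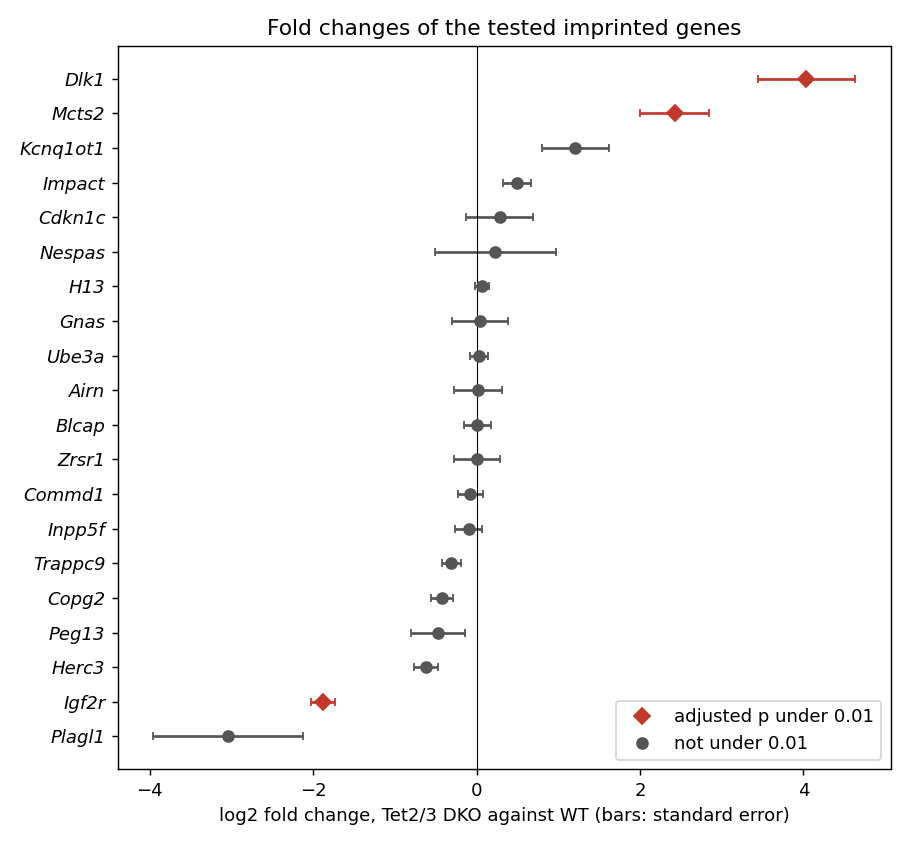
Log2 fold change of Tet2/3 DKO (n = 2) against WT (n = 3) for the 20 tested imprinted genes, with bars of 1 standard error and red diamonds for an adjusted p under 0.01. Dlk1 (4.04) and Mcts2 (2.43) are red on the right and Igf2r (-1.88) is red on the left, while Plagl1 (-3.04) has a wide bar and is not past the threshold.

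The start regions of the changed genes, and of Airn, which starts inside an intron of Igf2r, are shown with their CpG sites. The windows were placed at annotated starts and were not chosen to cover imprinting control regions. Their numbers of CG therefore need not describe those regions. Each is the RefSeq window of 250 bases before to 50 bases after the annotated start (GRCm38.p6), read 5′ to 3′ on the gene's strand, with every CG in capitals. Igf2r is the minus strand of chr17:12769657-12769956, Airn the plus strand of chr17:12741061-12741360, Dlk1 the plus strand of chr12:109452573-109452872, and Mcts2 the plus strand of chr2:152686898-152687197, inside an intron of H13.
Igf2r: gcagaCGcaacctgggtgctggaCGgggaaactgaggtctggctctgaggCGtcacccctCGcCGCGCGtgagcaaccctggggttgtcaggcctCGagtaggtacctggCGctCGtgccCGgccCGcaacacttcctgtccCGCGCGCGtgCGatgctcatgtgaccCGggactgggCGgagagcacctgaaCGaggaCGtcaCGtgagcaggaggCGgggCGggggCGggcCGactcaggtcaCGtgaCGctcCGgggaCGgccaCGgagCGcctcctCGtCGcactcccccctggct
Airn: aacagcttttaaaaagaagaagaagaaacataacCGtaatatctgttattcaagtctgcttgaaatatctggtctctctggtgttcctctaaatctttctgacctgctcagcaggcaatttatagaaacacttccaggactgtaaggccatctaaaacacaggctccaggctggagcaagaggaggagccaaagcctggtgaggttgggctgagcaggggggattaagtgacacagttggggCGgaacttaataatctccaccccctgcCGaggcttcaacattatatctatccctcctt
Dlk1: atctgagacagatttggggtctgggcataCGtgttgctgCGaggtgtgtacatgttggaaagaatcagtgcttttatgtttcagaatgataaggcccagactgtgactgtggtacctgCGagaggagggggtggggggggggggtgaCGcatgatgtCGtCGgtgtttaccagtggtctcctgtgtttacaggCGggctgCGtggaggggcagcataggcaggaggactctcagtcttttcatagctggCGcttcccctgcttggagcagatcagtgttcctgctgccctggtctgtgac
Mcts2: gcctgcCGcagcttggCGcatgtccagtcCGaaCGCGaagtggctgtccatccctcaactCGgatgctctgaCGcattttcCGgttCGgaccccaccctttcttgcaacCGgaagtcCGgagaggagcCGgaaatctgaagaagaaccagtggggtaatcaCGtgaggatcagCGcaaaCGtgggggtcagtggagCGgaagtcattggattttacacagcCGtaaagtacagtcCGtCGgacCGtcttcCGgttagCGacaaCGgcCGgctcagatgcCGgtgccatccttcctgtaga
The Igf2r window holds 34 CG, more than 92.3% of the 32851 RefSeq windows, and the Mcts2 window holds 25. The Dlk1 window holds 9 and the Airn window 3, where the median window holds 7. The letters TGCCGC, known as a motif that the imprint-maintaining protein ZFP57 binds when methylated, occur on either strand in 11.6% of all windows, and among these 4 sequences only in that of Mcts2, 1 time. DNA methylation was not analysed here, and windows were given for 32 of the 41 genes.

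Igf2r encodes the cation-independent mannose 6-phosphate receptor, which carries lysosomal enzymes to lysosomes and takes up IGF2 for degradation, and it is the classical maternally expressed gene of chromosome 17 (GRCm38 chr17:12682406-12769664, minus strand, protein coding). It had 5094, 4489 and 4667 counts in WT against 1234 and 748 in DKO, or 197, 189 and 170 CPM against 58.8 and 41.9 CPM. Both DKO libraries were far below the lowest WT library. The mean fell from 185 ± 13.9 CPM (SD, n = 3) to 50.3 ± 12.01 CPM (SD, n = 2), 3.68-fold lower, with a log2 fold change of -1.88 (SE 0.15, adjusted p = 0.000122). Without DKO replicate 1 the log2 fold change was -2.15 and without DKO replicate 2 it was -1.67, and the call held in every alternative fit (adjusted p from 5.6e-33 to 0.00395). Igf2r ranked 12 among the genes lower in DKO by adjusted p. In WT, 8.6% of tested genes had a mean CPM above that of Igf2r, without scaling to exon length. As for any bulk sample, fewer cells that express a gene and less RNA per cell cannot be told apart.

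Airn is the paternally expressed noncoding RNA that starts in an Igf2r intron and runs on the opposite strand (chr17:12741311-12860136), and it is known to silence the paternal Igf2r copy in many tissues. Its counts were 173, 144 and 175 in WT and 182 and 71 in DKO, so that 1 DKO library was above and 1 below all WT libraries. The means were 6.38 ± 0.31 CPM (SD, n = 3) and 6.32 ± 3.33 CPM (SD, n = 2), and the log2 fold change of 0.02 (SE 0.30, adjusted p = 0.985) took either sign across the alternative fits and was -0.69 without DKO replicate 1 (adjusted p = 0.13). Per 100 counts of Igf2r there were 3.40, 3.21 and 3.75 counts of Airn in WT and 14.8 and 9.49 in DKO, a ratio that was higher in both DKO libraries while the Airn mean differed by less than its spread. The exons that the GENCODE annotation gives to Airn and Igf2r do not overlap, and the sum of the strand columns gave 0.01 (SE 0.29) for Airn. SMART-seq primes on poly(A), so unspliced, poorly polyadenylated RNA is counted incompletely. Reads outside the exons of both genes enter neither count. Because the libraries carry no strand information, a read of unspliced Igf2r RNA that lies on an Airn exon counts toward Airn. How many such reads enter the Airn counts, and the ratio to Igf2r, was not measured.

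Around Igf2r, 13 further genes within 500 kb were tested, of which 1 rose and 1 fell. Slc22a2 and Slc22a3 are solute carriers that are imprinted in placenta together with Igf2r. Slc22a2, an organic cation transporter, had 246, 170 and 250 counts in WT against 42 and 16 in DKO, and fell with a log2 fold change of -2.53 (SE 0.34, adjusted p = 0.00203). Slc22a3, another organic cation transporter, had 7, 3 and 0 counts in WT against 13 and 60 in DKO, a log2 fold change of 3.81 (SE 0.94) that did not pass with edgeR (adjusted p = 0.0329) and passed with DESeq2 (adjusted p = 0.00607). It was 4.63 without DKO replicate 1 (adjusted p = 3.93e-05) and 2.20 without DKO replicate 2 (adjusted p = 0.135), within 3.93e-05 to 0.159 over the alternatives, and it entered the test only through its DKO counts. Acat2, a cytosolic thiolase of sterol synthesis, rose from 42.6 ± 1.64 CPM (SD, n = 3) to 64.0 ± 5.84 CPM (SD, n = 2), a log2 fold change of 0.59 (SE 0.11, adjusted p = 0.00938). The calls of Slc22a2 and Acat2 were each lost without any 1 of the WT libraries (adjusted p 0.0149 to 0.0203 and 0.0409 to 0.0625), and that of Acat2 also without DKO replicate 1 (0.0142) without the filter on low counts (0.0177) and with a filter on a mean of at least 10 counts (0.0101). The neighbors Tcp1, Mrpl18, Wtap and Sod2 did not pass, with log2 fold changes of 0.17, 0.15, -0.07 and 0.29. Acat3, another thiolase gene, did not pass (2.81, SE 0.79, adjusted p = 0.0478), and was at 0.18 in the sum of the strand columns, where reads of the overlapping Tcp1 count toward it too. It also entered only through its DKO counts.

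**Figure D3:**
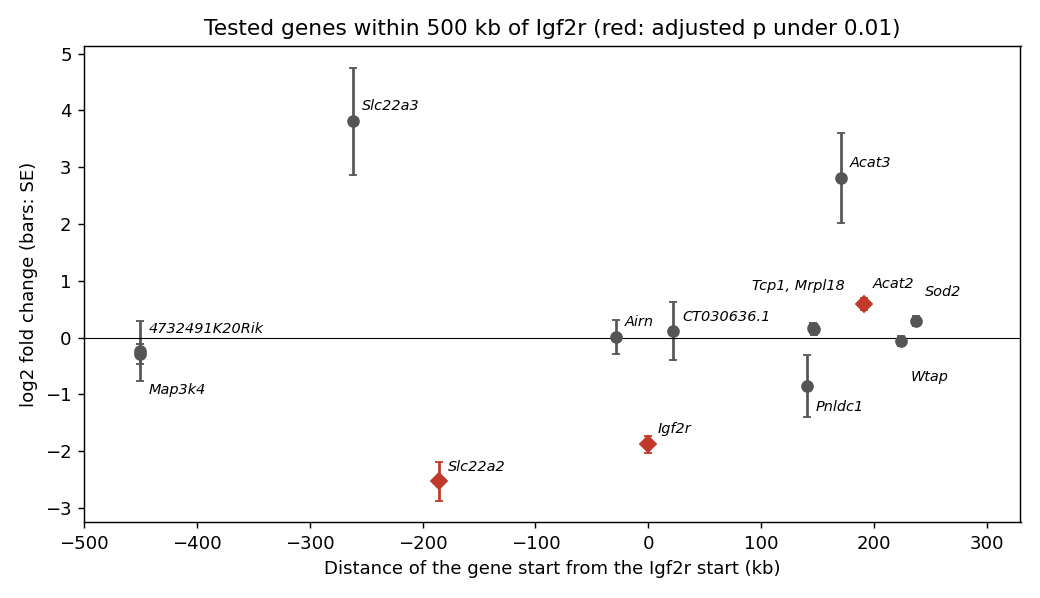
Log2 fold change (Tet2/3 DKO against WT, bars 1 standard error) of tested genes by the distance of their start from that of Igf2r, in kb along chromosome 17, with red diamonds for an adjusted p under 0.01. Igf2r (-1.88) and Slc22a2 (-2.53) are low, Acat2 (0.59) is slightly raised, and Airn, 28.4 kb from the Igf2r start, is at 0.02.

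The other genes of mannose 6-phosphate sorting, chosen after the values were seen, did not pass the edgeR test over all libraries. M6pr, the second receptor of this route, had a log2 fold change of 0.16 (adjusted p = 0.404), and Gnptg, a subunit of the enzyme that makes the tag, had 0.46 (adjusted p = 0.0125), which passed with DESeq2 (adjusted p = 0.000103) and without DKO replicate 1 (adjusted p = 0.00994), within 0.000103 to 0.0713 over the alternatives. Gnptab, Nagpa and the adaptors Gga1, Gga2 and Gga3 had adjusted p from 0.126 to 0.868.

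Dlk1 encodes a transmembrane protein related to Notch ligands, known for its role in preadipocytes and in fetal tissues, and is the paternally expressed protein-coding gene of the Dlk1-Meg3 cluster (chr12:109452823-109463336, plus strand). It had 3, 5 and 1 counts in WT against 54 and 24 in DKO, or 0.116, 0.211 and 0.0364 CPM against 2.57 and 1.34 CPM. Both DKO libraries were above all WT libraries, and WT lay near the limit of detection, since 3 counts correspond to 0.109 to 0.168 CPM in these libraries. The log2 fold change was 4.04 (SE 0.60, adjusted p = 0.00237). On pooled counts, 78 in DKO and 9 in WT, the ratio was 17.2 with an exact 95% interval of 8.60 to 39.0, which covers counting error only, as reads without molecular identifiers are not independent molecules. Dlk1 entered the test only through its DKO counts. The adjusted p rose to between 0.0189 and 0.0312 when any 1 WT library was left out, and stayed at 0.00355 without DKO replicate 1. Even in DKO its level was low, 0.346 CPM per kb, under the 5.41 of Igf2r there.

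The maternally expressed RNAs of the same cluster were not detected to rise with it. Meg3 had 1 count in 1 WT library, and Rian and Mirg, the hosts of small RNAs, had 0 counts in all 5. A count of 0 allows up to 3 counts, 0.168 CPM in the shallowest library. The only other gene tested within 500 kb was Begain, at -0.55 (adjusted p = 0.347). Among fibroblast markers, Col1a2, Col3a1 and Pdgfrb were at 0 in all libraries, Col1a1 had 6 to 18 counts in each, Dcn had 7 counts and Pdgfra 1 count in DKO replicate 2 alone, and the 6 markers summed to at most 0.783 CPM.

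Several imprinted genes are retrogenes, intronless copies of a messenger RNA that inserted into an intron of a host gene and that carry their own paternally expressed promoter. Mcts2, a copy of the X-linked translation factor gene Mcts1, sits in an intron of H13 (chr2:152687035-152687946, plus strand). It had 7, 7 and 13 counts in WT against 36 and 38 in DKO, or 0.271, 0.295 and 0.474 CPM against 1.72 and 2.13 CPM. The groups did not overlap, although Mcts2 entered the test only through its DKO counts, and the log2 fold change was 2.43 (SE 0.42, adjusted p = 0.00785). The pooled ratio was 5.43 (exact 95% interval 3.46 to 8.79, counting error only). Without any 1 WT library the adjusted p was 0.0286 to 0.0543 and the call was lost. Without DKO replicate 1 the log2 fold change was 2.58 (adjusted p = 0.00285).

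The host and the parent of Mcts2 did not pass the test. H13 had 8741, 8006 and 10195 counts in WT against 7978 and 6269 in DKO, a log2 fold change of 0.07 (SE 0.09, adjusted p = 0.719). Mcts1 had 3744, 3255 and 3646 counts in WT against 3480 and 2757 in DKO, at 0.21 (SE 0.09, adjusted p = 0.192), with 166 and 154 CPM in DKO above the 133 to 145 CPM of WT. Of the 863 stretches of 50 bases in the annotated Mcts2 transcript, 0 occur in a Mcts1 transcript, so an exact read of this length would not be shared, although reads with mismatches were not examined. Per 100 counts of H13 there were 0.0801 to 0.128 counts of Mcts2 in WT and 0.451 and 0.606 in DKO. Mcts2 lies on the same strand as H13, so a read of unspliced H13 RNA over this stretch would count toward Mcts2. The number of such reads was not measured. Of 15 tested genes within 500 kb of Mcts2, 1 fell, the pseudokinase gene Trib3 (241, 221 and 255 counts in WT, 76 and 50 in DKO, log2 fold change -1.52, SE 0.22, adjusted p = 0.00327, and 0.0242 to 0.0296 without any 1 WT library). No other passed, with edgeR or with DESeq2, and 2 of the 15 had an unadjusted p under 0.05, both lower, beside 10.6% of all tested genes.

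**Figure D4:**
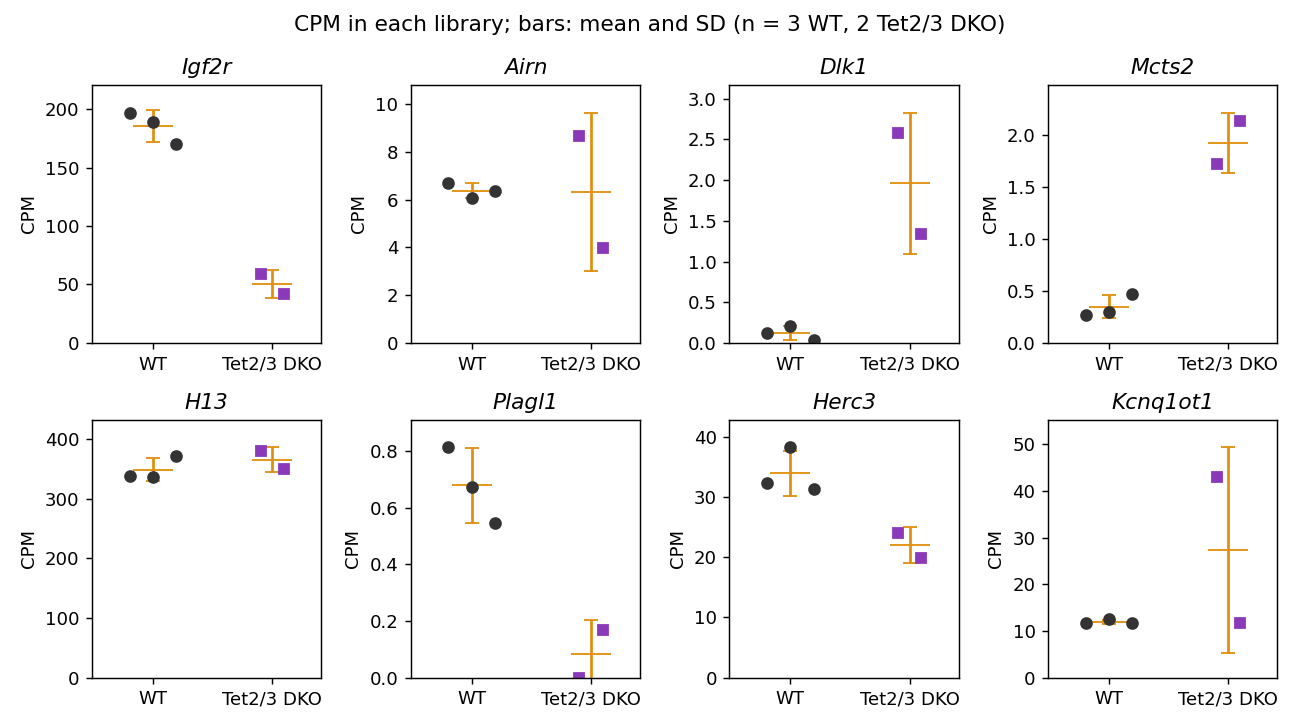
CPM in each library for 8 imprinted genes, on linear axes that start at 0 and differ between panels (circles WT, n = 3; squares Tet2/3 DKO, n = 2; orange bars mean and SD). Igf2r falls while Airn spans the WT range, Mcts2 rises while its host H13 does not, and Kcnq1ot1 is high in 1 of the 2 DKO libraries only.

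The other host and guest pairs did not show the pattern of Mcts2 and H13. Zrsr1, a copy of the X-linked splicing factor gene Zrsr2 inside Commd1, had 73, 65 and 93 counts in WT against 68 and 49 in DKO (log2 fold change 0.01, SE 0.28, adjusted p = 0.993). Its host Commd1, a regulator of copper handling and NF-kB, was at -0.08 (SE 0.15, adjusted p = 0.822), and Zrsr2 was at -0.03 (adjusted p = 0.898). Nap1l5, inside Herc3, had at most 1 count, and its host Herc3, a ubiquitin ligase gene, had 836, 908 and 859 counts in WT against 505 and 355 in DKO. Both DKO libraries were below all WT libraries for Herc3, with 33.97 ± 3.75 CPM (SD, n = 3) against 21.97 ± 2.98 CPM (SD, n = 2), but its log2 fold change of -0.62 (SE 0.15) did not pass with edgeR (adjusted p = 0.0316) and passed with DESeq2 (adjusted p = 0.0027) and without DKO replicate 1 (-0.77, adjusted p = 0.00429), over a range of 0.0027 to 0.115 among the alternatives. Nnat, inside Blcap, had 1 count in 1 library, and Blcap was at 18.2 ± 0.86 CPM (SD, n = 3) and 18.2 ± 3.91 CPM (SD, n = 2). Inpp5f, an inositol phosphatase gene of which only a short variant is imprinted, had 626, 579 and 726 counts in WT against 578 and 339 in DKO (-0.10, SE 0.17, adjusted p = 0.793), and the counts do not separate that variant.

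Kcnq1ot1, the paternal noncoding RNA of the Kcnq1 cluster on chromosome 7 (chr7:143203458-143296549), had 304, 296 and 322 counts in WT against 900 and 209 in DKO. The values were 11.8, 12.5 and 11.7 CPM in WT, 42.9 CPM in DKO replicate 1 and 11.7 CPM in DKO replicate 2, so that only 1 DKO library stood apart. The log2 fold change of 1.21 (SE 0.41, adjusted p = 0.109) became -0.04 without DKO replicate 1 (adjusted p = 0.941) and 1.83 without DKO replicate 2 (adjusted p = 2.45e-07), within a range of adjusted p of 2.45e-07 to 0.941 over the alternatives. DKO replicate 1 is the library with 6.45% of reads outside annotated genes and Xist at 744 counts, and their part in this value was not tested. Kcnq1ot1 is annotated as 93092 bases of exon without introns, so scattered reads over a wide stretch count toward it. Cdkn1c, the maternally expressed cell cycle inhibitor of the cluster, had 31, 15 and 29 counts in WT against 24 and 22 in DKO (0.28, SE 0.41, adjusted p = 0.754). Phlda2, a growth regulator of the placenta, had 1 count in 1 library.

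Peg13, the paternal noncoding RNA inside Trappc9, had 84, 80 and 61 counts in WT against 40 and 42 in DKO, or 2.95 ± 0.63 CPM (SD, n = 3) and 2.13 ± 0.31 CPM (SD, n = 2), with overlapping CPM (-0.47, SE 0.33, adjusted p = 0.455). Trappc9, a vesicle tethering factor gene, was lower in both DKO libraries without passing the test (-0.31, SE 0.12, adjusted p = 0.153), and Kcnk9, a potassium channel gene, was at 0 in all libraries. Peg13 made 6.12 to 8.26 counts per 100 of Trappc9 in WT and 5.82 and 7.82 in DKO, which overlap.

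In the Snrpn cluster only the ubiquitin ligase gene Ube3a, which is imprinted in neurons, was well measured. It had 1285, 1279 and 1303 counts in WT against 1128 and 879 in DKO (0.03, SE 0.11, adjusted p = 0.901). Snrpn, a splicing protein gene, had 3, 5 and 1 counts in WT against 4 and 22 in DKO, so that only DKO replicate 2 was raised. It was too low for the test over all libraries. In the fit without DKO replicate 1 (log2 fold change 3.34) it entered only through DKO replicate 2, in which it is high. Over all libraries it did not pass with DESeq2 (adjusted p = 0.226) or with edgeR without the filter (adjusted p = 0.176). Snurf was at 0 counts, but all of its exon bases are shared with genes on the same strand, so that its reads would have been set aside as ambiguous. Ndn had 1 count in each DKO library and Magel2 had 0.

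Plagl1, Grb10 and Impact lie outside the large clusters. Plagl1, a zinc finger transcription factor that restrains the cell cycle (chr10:13060504-13131694), had 21, 16 and 15 counts in WT against 0 and 3 in DKO, with no overlap. Its log2 fold change of -3.04 (SE 0.91) did not pass (adjusted p = 0.0682), and it passed the filter only through WT. It was -1.98 without DKO replicate 1 (adjusted p = 0.236) and -7.06 without DKO replicate 2 (adjusted p = 0.0258), which leaves a DKO library at 0 counts. On pooled counts, 52 in WT and 3 in DKO, the ratio of WT to DKO was 8.74 with an exact 95% interval of 2.83 to 43.8, which covers counting error only. Grb10, an adaptor that dampens insulin and growth factor signaling, had 0, 2 and 0 counts in WT against 9 and 1 in DKO and was too low for a test. Impact, a regulator of the GCN2 kinase, was higher in both DKO libraries, 12.2 ± 0.32 CPM (SD, n = 2) against 8.65 ± 0.61 CPM (SD, n = 3), but did not pass (0.50, SE 0.17, adjusted p = 0.112).

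Copg2 and Mest are neighbors on chromosome 6 whose ends overlap. Copg2 had 1793, 1634 and 1905 counts in WT against 922 and 1069 in DKO, or 69.4, 68.9 and 69.4 CPM against 44.0 and 59.8 CPM. Both DKO libraries lay below a narrow WT range, but the test over all libraries did not pass (-0.42, SE 0.13, adjusted p = 0.0928), and it passed only without DKO replicate 2 (-0.67, adjusted p = 0.00174), over a range of 0.00174 to 0.326. Mest, a paternally expressed gene of the hydrolase fold, had 9, 2 and 2 counts in WT against 14 and 2 in DKO, and 74.6% of the reads on its exons were set aside because they also lie on another gene.

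The handling of overlaps decided how much of some imprinted genes was seen, since imprinted loci often carry genes on opposite strands. The deposited count without strand drops any read that lies on more than 1 gene, and the sum of the strand columns retains the reads whose genes are on opposite strands. Gnas, the gene of the stimulatory G protein alpha subunit, had 24 to 35 counts per library without strand and 17837 to 33313 in the sum, so that 99.9% of its reads were set aside. Its antisense neighbor, the annotated gene Gm20721, shares those exons, and the libraries carry no strand information, with 49.8% to 50.2% of reads on each strand column, so that the gene a read came from cannot be told apart. The log2 fold change was 0.04 (SE 0.35, adjusted p = 0.962) without strand and -0.05 (SE 0.10, adjusted p = 0.83) in the sum, both small beside the spread. Nespas, the antisense RNA of this locus, had 3 to 12 counts per library (0.23, SE 0.74, adjusted p = 0.901). The share set aside was 59.1% for Cdkn1c, 52.7% for Nespas, 50% for Ube3a and 37.7% for Zrsr1, and none of these was called in the sum either. For Igf2r, Dlk1 and Mcts2 the share was 0%.

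**Figure D5:**
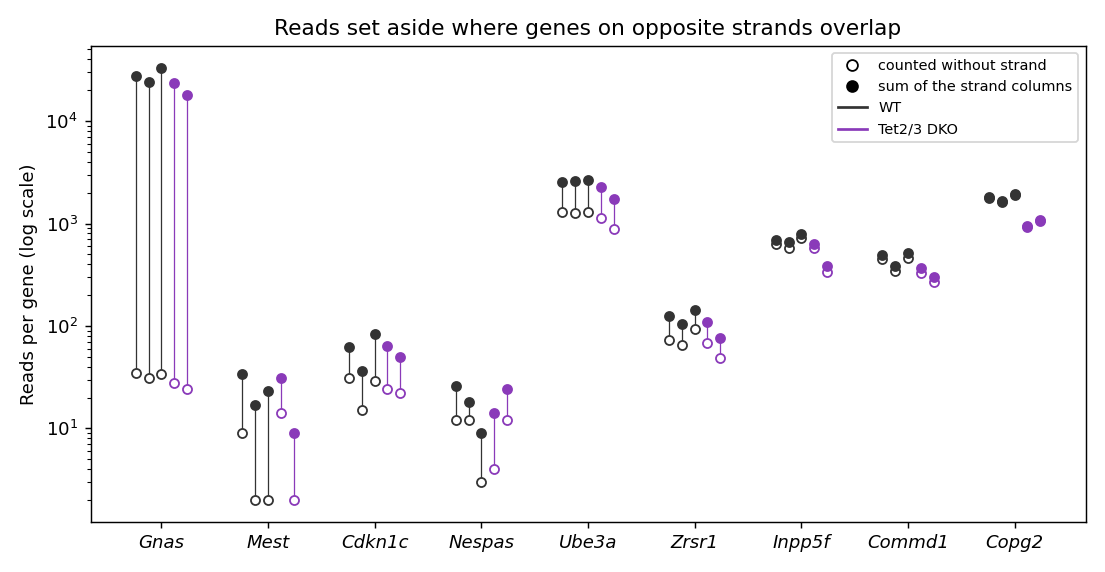
Reads per gene and library on a log axis, counted without strand (open circles) and as the sum of the strand columns (filled circles), for 9 imprinted genes with overlapping neighbors, WT in black (n = 3) and Tet2/3 DKO in purple (n = 2). For Gnas the sum is far above the count without strand in all 5 libraries, while for Copg2 the circles coincide.

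The remaining genes, several of them the best known of the class, were absent or near absent in both genotypes. The growth factor gene Igf2, the zinc finger gene Peg3 and its neighbor Zim1, the retrotransposon-derived Peg10 and the exchange factor gene Rasgrf1 were at 0 counts in every library. H19, the noncoding partner of Igf2, had 2 counts in 1 WT library. Usp29 had 1 count and Sgce at most 2. For Igf2, 64.5% of the exon bases are shared with other annotated genes, and reads there would have been set aside. At this depth a gene at 0 could be present at up to 0.109 CPM in the deepest and 0.168 CPM in the shallowest library.

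By the allele that textbooks give as active, 23 genes are paternally expressed, 14 maternally and 4 are hosts. Of the paternal genes 10 were tested and 2 rose (Dlk1 and Mcts2, which entered only through DKO; 2.42% of all tested genes rose). The median of the 10 log2 fold changes was 0.123, with 4 higher (Dlk1 and Mcts2 among them) and 1 lower at an unadjusted p under 0.05, a level that 12.4% of all tested genes reached as higher and 10.6% as lower in DKO. Of the maternal genes 6 were tested and 1 fell (Igf2r; 1.5% of all tested genes fell), with a median of -0.137 and, at an unadjusted p under 0.05, 0 higher and 3 lower, numbers too small to be read against those shares. Of the hosts 4 were tested and 0 passed with edgeR, with 1 at an unadjusted p under 0.05 and 1 called by DESeq2 (Herc3 in both). DESeq2 called 2 paternal genes as higher and 1 maternal gene as lower. The difference between these classes was not tested.

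A second list held 55 other imprinted genes or members of imprinted clusters, of which 27 were tested. Slc22a2 fell and 1 gene rose, Tnfrsf26, a decoy receptor gene of the TNF receptor family at the edge of the Kcnq1 cluster, with 1314, 1058 and 1298 counts in WT against 1457 and 1614 in DKO (0.75, SE 0.13, adjusted p = 0.00755, 0.0335 to 0.0543 without any 1 WT library, 0.0108 without the filter and 0.0101 with scaling by library totals only). The other 25 did not pass with edgeR and the median log2 fold change was -0.01, with 6 of the 27 higher and 4 lower at an unadjusted p under 0.05. Of all tested genes, 12.4% were higher and 10.6% lower at that level. Slc22a3 and Gatm, both among the 6, entered the test only through DKO, so nothing is read from this count. DESeq2 called 2 as higher and 2 as lower, adding Slc22a3 and the AMP deaminase gene Ampd3 (-1.41, adjusted p = 0.000373), which had an adjusted p of 0.0191 with edgeR and of 0.00884 without DKO replicate 1. The genes of highest WT mean CPM in this list, not scaled to exon length, were Tspan32 (990 CPM, -0.21, adjusted p = 0.203), Nap1l4 (479 CPM, -0.25, adjusted p = 0.0875) and Cd81 (182 CPM, 0.01, adjusted p = 0.975). Of 29 regulators of imprints (DNA methyltransferases, TET enzymes, zinc finger proteins and their cofactors), 24 were tested. Of these 1 fell, the targeted Tet3, and the median was -0.07, with 1 of the 24 higher and 7 lower at an unadjusted p under 0.05, beside 12.4% and 10.6% of all tested genes. DESeq2 called 3 as lower, adding Tet1 (-0.85, adjusted p = 0.00015) and Dnmt3b (-0.77, adjusted p = 0.00179), whose adjusted p with edgeR were 0.0152 and 0.0248. The regulators of highest WT mean CPM, which is not scaled to exon length, were Ctcf (205 CPM, -0.22, adjusted p = 0.171), Trim28 (183 CPM, -0.14, adjusted p = 0.408) and Arid4b (177 CPM, 0.19, adjusted p = 0.434).

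Some markers of other cells also differed between the genotypes. The 4 NKT and NK markers summed to 4.21 to 5.18 CPM in WT and 21.4 and 43.7 CPM in DKO, and 3 of the 4 rose (Zbtb16, Klrb1c and Ncr1, the last of which entered the test only through DKO), although the sort removed tetramer-binding cells. Klrk1 did not pass, at 1.05 CPM in DKO replicate 1 and 9.51 CPM in DKO replicate 2 beside 1.55 to 2.08 CPM in WT. The 6 myeloid markers summed to 7.43 to 13.2 CPM in WT and 23.6 and 50.8 CPM in DKO, where 0 of 4 tested passed with edgeR or DESeq2 and 3 had an unadjusted p under 0.05, all higher. Among these 3, Csf1r (7, 2 and 1 counts in WT, 15 and 19 in DKO) entered the test only through DKO. Its log2 fold change was smaller in the sum of the strand columns, at 0.2961 (edgeR adjusted p = 0.567). Thymic epithelial markers (6 genes) summed to 10.6 to 13.4 CPM in WT and 10.7 and 34.1 CPM in DKO, a sum made up mostly of Epcam (219 and 604 counts in DKO). Psmb11, with 39, 22 and 18 counts in WT against 1 and 0 in DKO, and Krt8 lay below WT without passing (-5.05 and -2.52, adjusted p = 0.0191 and 0.0645). Both entered the test only through WT, in which they are high. The median of the 3 tested markers, -2.52, is the value of Krt8. Early progenitor markers (5 genes) summed to 4.53 to 5.10 CPM in WT and 11.5 and 19.98 CPM in DKO, where Lmo2 and Hhex rose. Kit and Flt3 of the same list lay below WT in both DKO libraries without passing (both -1.64, adjusted p = 0.061 and 0.126), and Cd34 was at 0 in both. The 3 CD8 lineage markers summed to 88.4 to 95 CPM in WT and 63.0 and 58.4 CPM in DKO, where Cd8b1 fell (-1.29, adjusted p = 0.000168) and Cd8a and Runx3 lay above WT without passing (0.94 and 0.41, adjusted p = 0.128 and 0.142). Of the gamma-delta list, Sox13 lay below WT without passing (-2.12, adjusted p = 0.0366) and entered the test only through WT. Trdc was at 0.33 (adjusted p = 0.376) with overlapping groups, and the matched markers summed to 12.8 to 17.6 CPM in WT and 18.6 and 15.5 CPM in DKO. Dntt of the double-positive list lay below WT without passing (-0.53, adjusted p = 0.106), and the 5 B cell markers summed to 5.61 to 6.96 CPM in WT and 9.11 and 8.62 CPM in DKO. The 5 endothelial markers summed to 146.6 to 182.2 CPM in WT and 112.0 and 138.1 CPM in DKO. Of these, 2 were tested and 0 passed (median log2 fold change -0.385), and 3 were at 0 in all libraries. Of the CD4 SP markers 5 of 10 fell, Cd4, Cd5, Zbtb7b, Ccr7 and S1pr1, beside 1.5% of all tested genes. The call of Cd4 (edgeR adjusted p = 0.00951) was lost in the sum of the strand columns (0.0105). The part of all these markers in the changes of Igf2r, Dlk1 and Mcts2 was not tested. Erythroid markers summed to at most 0.524 CPM.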

How the data were processed

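RNA-seq (SMART-seq v4, no molecular identifiers, unstranded) was analysed for 3 WT and 2 Tet2/3 DKO libraries. Per the submitters' processing notes and the study's methods, the authors used bcl2fastq 2.20.0, fastp 0.21.0 and STAR 2.7.5a on GRCm38 and deposited whole-number read counts per gene, unfiltered, with a column without strand (used here) and a column per strand. Reads that lie on several genes were set aside by the counting (7.29% to 7.54% of assigned, unassigned and ambiguous reads), and reads outside genes (3.94% to 6.45%) were left out of library sizes. Symbols, coordinates and exon lengths came from GENCODE M21, in which 55227 of 55487 identifiers were found. The authors' annotation release was another one, so exon models may differ. Deposited clonotype tables were not used.

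Counts were tested with edgeR 4.0.16 (TMM, filterByExpr with a minimum of 10, quasi-likelihood test, no covariate) in R 4.3.3 over 13525 genes, with Benjamini-Hochberg adjustment and the study's threshold of 0.01. The SE of a log2 fold change was obtained from its size and its F statistic. The script was tested on simulated data. DESeq2 1.42.0 was an alternative, beside other scalings, filters, moderations, the strand sum, a replicate block and leaving out each library. Means and SDs are of TMM-scaled CPM. The p-values measure the spread between these libraries, which includes that of their preparation.

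All 41 imprinted genes are accounted for, with values for those that reach 10 counts. Of the lists of other imprinted genes and of regulators, the genes past the threshold and the 3 of highest mean CPM are named. The members and lists were chosen with earlier results of these data known.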

Additional observations from a re-analysis of the deposited data

How the results depend on the processing

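Of 20 imprinted genes tested, 12 kept the sign of their log2 fold change in every alternative fit, and 8 changed it at least once, each of them with a log2 fold change that did not pass the test. The number of imprinted genes past the threshold was 3 with all libraries, stayed between 3 and 4 with other scalings, filters, moderations, the strand sum, DESeq2 or a threshold of 0.05, was 1 (Igf2r) with the replicate block, and was 1 to 5 with 1 library left out (1 without any of the WT libraries, 5 without either DKO library). Over all genes, 530 passed, against 1027 with DESeq2, 1174 at a threshold of 0.05, and 110 to 1312 with 1 library left out. The labels do not say whether the replicate numbers pair the samples. Deviations from the group mean correlated at 0.015 and 0.004 between libraries of the same number. This cannot decide the question, since the deviations of 2 DKO libraries mirror each other. With the replicate block 359 genes passed, and Dlk1 had an adjusted p of 0.0151 and Mcts2 of 0.0297. Of the neighbors and related genes, Acat2 (0.0307), Trib3 (0.0195) and Tnfrsf26 (0.0354) no longer passed with the block, while Slc22a2 still passed (0.00633). With all libraries in the fit, the values that changed sign were, for Airn, -0.0142 with DESeq2, -0.007 without the filter, -0.0064 with the legacy moderation and -0.0437 with the block. Ube3a was at -0.0082 with the block. Blcap was at -0.0011 with DESeq2, -0.0113 without the filter and -0.0434 with the block. Zrsr1 was at -0.0003 with DESeq2, -0.0151 without the filter and -0.0031 in the strand sum. Gnas was at -0.0498 in the strand sum and Nespas at -0.2259 with the block. With 1 library left out the log2 fold change ranged from -0.69 to 0.43 for Airn, -0.0371 to 1.83 for Kcnq1ot1, -0.0356 to 0.0821 for Ube3a, -0.24 to 0.19 for Blcap, -0.13 to 0.11 for Zrsr1, -0.88 to 0.92 for Nespas and -0.40 to 0.12 for Inpp5f. The cause was not tested. Depth limits Dlk1, Mcts2, Plagl1 and the untested genes, which rest on few reads.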
